A study of Mus musculus with 18 samples.

Results

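The lysosome and vacuolar proton pump genes followed here are 47 named genes, chosen by symbol among the 55487 genes of the count files. They comprise 18 subunits of the vacuolar H+-ATPase (V-ATPase), of which 8 belong to its V1 sector, 8 to its V0 sector and 2 are accessory subunits, together with 9 cathepsins, 10 other hydrolases, 2 genes for saposins and granulins, 5 lysosomal membrane proteins and the 3 MiT/TFE transcription factors. Total RNA was sequenced after depletion of ribosomal RNA from the subcutaneous white adipose tissue (sWAT) of 12-week-old male mice and from the brown adipose tissue (BAT) of 4-week-old male mice. All mice had been fasted for 4 h. Whether each library came from a single mouse is not stated in the sources used here. Ctrl mice carried floxed Csn8 alleles without Cre (Csn8 f/f; AdipoqCre-), and Csn8AKO mice carried the same alleles with Cre driven by the adiponectin promoter (Csn8 f/f; AdipoqCre+), which acts in adipocytes and leaves the other cells of the tissue with intact alleles. There were 4 Ctrl and 4 Csn8AKO libraries of sWAT and 5 and 5 of BAT. Tissue and age cannot be told apart in this design. All 47 genes passed the filter on low counts in both tissues.

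Lysosomes degrade material that reaches them by endocytosis, phagocytosis and autophagy. The V-ATPase acidifies them, with a cytosolic V1 sector that hydrolyses ATP and a membrane V0 sector that carries protons, and the acid hydrolases inside need this low pH. TFEB, TFE3 and MITF are transcription factors that bind E-box sequences in the promoters of many lysosomal genes. In adipose tissue, macrophages are rich in lysosomes and express some of these genes at far higher levels than adipocytes do, whereas most others are made by nearly every cell type.

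From this general knowledge, 9 of the 47 genes were counted as macrophage-enriched (Tcirg1, Ctsc, Ctsh, Ctsk, Ctss, Ctsz, Grn, Lgmn and Mitf) and the other 38 as broadly expressed. Levels are given as CPM, which are read counts scaled to the size of the library with TMM factors, and a gene was called higher or lower at an adjusted p under 0.05 (edgeR's quasi-likelihood test, Benjamini-Hochberg adjustment over all genes tested). Libraries held 15835721 to 23109603 counted reads in sWAT and 26658593 to 66719937 in BAT. Ribosomal RNA genes took 1.80% to 19.8% of the reads in Ctrl and 3.96% to 47.8% in Csn8AKO sWAT, where replicates 3 and 4 were highest at 31.8% and 47.8%. In BAT they took 0.863% to 10.1% in Ctrl and 1.06% to 15.1% in Csn8AKO libraries. In sWAT, Ctrl replicate 1 and Csn8AKO replicate 2 stood apart by their B cell markers, with summed levels of 209.8 and 548 CPM against at most 18.6 CPM in the other 6 libraries. In BAT, Csn8AKO replicates 1 and 5 had summed skeletal muscle markers of 123 and 209 CPM against at most 14.0 CPM in the other 8, and these sums ran from 169 to 2842 CPM in Ctrl and 43.5 to 1701 CPM in Csn8AKO sWAT. Csn8 is listed as Cops8, and it was at 35.0 ± 0.911 CPM in Ctrl and 32.2 ± 2.99 CPM in Csn8AKO sWAT (SD, n = 4 per group; adjusted p = 0.623). In BAT these levels were 39.4 ± 3.22 and 32.1 ± 3.56 CPM (SD, n = 5 per group; adjusted p = 0.0211), and the gene count also covers exons that the deletion leaves in place. The markers that define each tissue were present, since the summed adipocyte markers were at 12055 to 17230.0 CPM in Ctrl sWAT and 11963 to 14006 CPM in Ctrl BAT, and the brown adipocyte markers at 4256 to 7466 CPM in Ctrl BAT.

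Some promoters of these genes carry the letters that MiT/TFE factors are known to bind. RefSeq promoter windows (build GRCm38.p6) of 300 bases, from 250 bases before to 50 after a start, were found for 39 of the 47 genes, in 51 windows. The E-box core CACGTG, which reads the same on both strands, was in 13 of the 51 windows (25.5%) and in 7.15% of all 32851 windows of the same length. The longer TCACGTGA, which contains that core, was in 7 of the 51 windows (13.7%) against 0.974% of all windows, and the same letters extended by G at the start and C at the end were in 0 of them against 0.326%. All 7 genes with TCACGTGA were broadly expressed ones. The stretches around it are printed 5′ to 3′ on the strand of the gene, with its letters in capitals, because these genes include both called and uncalled ones.
Gla, chrX:134601173-134601220, minus strand: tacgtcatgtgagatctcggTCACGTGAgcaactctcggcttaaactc
Gla, chrX:134601206-134601253, minus strand: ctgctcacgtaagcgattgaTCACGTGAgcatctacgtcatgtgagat
Ctsd, chr7:142387899-142387946, minus strand: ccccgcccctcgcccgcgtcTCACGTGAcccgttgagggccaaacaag
Ctsa, chr2:164833740-164833772, plus strand: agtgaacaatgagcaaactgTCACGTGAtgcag
Ctsa, chr2:164833766-164833795, plus strand: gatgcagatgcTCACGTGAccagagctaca
Atp6v1a, chr16:44139364-44139411, minus strand: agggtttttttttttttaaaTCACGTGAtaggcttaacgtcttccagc
Mcoln1, chr8:3500453-3500500, plus strand: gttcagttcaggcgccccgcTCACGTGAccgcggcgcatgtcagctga
Atp6v0d1, chr8:105566050-105566079, minus strand: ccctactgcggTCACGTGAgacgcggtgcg
Atp6v0e, chr17:26676387-26676416, plus strand: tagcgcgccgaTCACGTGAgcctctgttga
Gla, which encodes alpha-galactosidase A, and Ctsa held 2 copies each, and Gla was higher in Csn8AKO mice in both tissues. Ctsd, Ctsa and Atp6v0d1 were called higher in BAT and not in sWAT, whereas Atp6v1a, Mcoln1 and Atp6v0e were called in neither tissue. Over the 7 genes the median log2 fold change was 0.39 in sWAT and 0.33 in BAT, beside 0.38 and 0.35 over the 32 genes whose windows lacked these letters. A match of letters is a description of the window, and binding was not measured.

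In Csn8AKO sWAT, 8 of the 47 genes were higher and 0 were lower (5.31% of the 18843 genes tested in sWAT were called in either direction and 2.3% higher). The 8 were Ctss, Lgmn, Gla, Tcirg1, Ctsh, Mitf, Ctsc and Gusb, and for each of them all 4 Csn8AKO libraries lay above all 4 Ctrl libraries. Of the 9 macrophage-enriched genes 6 were higher, and the median log2 fold change over the 9 was 0.71. Of the 38 broadly expressed genes 2 were higher, Gla and Gusb, and their median was 0.22. Over all genes tested the median was 0.032. The summed level of 21 macrophage markers, none of them among the 47 genes, was 1458 to 1929 CPM in Ctrl and 2364 to 3978 CPM in Csn8AKO sWAT. In bulk tissue, more cells of a type and more RNA per cell cannot be told apart. With a log2 fold change of at least 1 as well, 3 of the 47 were higher (Ctss, Lgmn and Gla; 1.41% of all genes tested). For 11 of the 47 all Csn8AKO libraries lay above all Ctrl libraries and for 0 below, against 5.8% and 8.23% of all genes tested. Lower genes were 0 with edgeR, DESeq2 and limma voom alike, and of the 22 genes with an unadjusted p under 0.05 in edgeR, 0 had a log2 fold change below 0.

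These counts moved with single libraries. With the ribosomal RNA genes, whose share was highest in Csn8AKO replicates 3 and 4, taken out of the counts, 8 genes were called. Ctss, Lgmn and Tcirg1 were called whichever of the 8 libraries was omitted. With library size alone as the scaling, only Ctss of the 47 was called, and with limma voom 19 were. The number of genes called was 19 without Csn8AKO replicate 2, the library with the most B cell markers, and 15 (14 higher and Atp6v0e2 lower) without both libraries high in B and T cell markers. It was 5 without Ctrl replicate 1, 7 without Csn8AKO replicate 4, 4 without Csn8AKO replicate 1 and 3 without Ctrl replicate 2, 3 or 4 or Csn8AKO replicate 3. Calls over all genes tested moved as well, from 434 higher and 566 lower in the fit reported. They were 804 and 673 without Csn8AKO replicate 2, and 993 and 827 without both libraries high in B and T cell markers. They were 147 to 183 and 179 to 229 in the fits that called 3 of the 47. Of the 47 genes, 40 had a log2 fold change above 0, which 53.3% of all genes tested had.

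In Csn8AKO BAT, 25 of the 47 genes were higher and 1 was lower, against 31.9% of the 22345 genes tested in BAT called in either direction, 16% higher and 15.8% lower. The higher genes were 8 of the 9 macrophage-enriched ones (all but Ctsz; median over the 9 0.72 on the log2 scale) and 17 of the 38 broadly expressed ones, with a median of 0.22. The median over all genes tested was 0.0063. The summed macrophage markers were at 156 to 211 CPM in Ctrl and 484 to 678 CPM in Csn8AKO BAT. The macrophage-enriched class was set by general knowledge and was not tested here. With levels scaled within each tissue, Ctsz averaged 196 CPM in Ctrl BAT and 122 CPM in Ctrl sWAT. The other 8 genes of the class were lower in Ctrl BAT than in Ctrl sWAT by unlike amounts, with Tcirg1 at 31.8 and 43.6 CPM and Ctsk at 3.23 and 46.1 CPM. The summed macrophage markers had medians of 180 CPM in Ctrl BAT and 1593 CPM in Ctrl sWAT. Broadly expressed genes went both ways, with Cd63 at 29.9 and 130 CPM and Atp6v1a at 114 and 76.4 CPM. A lower level in Ctrl BAT was thus not particular to the class. With a log2 fold change of at least 1, 5 genes were higher, namely Ctss, Cd63, Ctsh, Ctsc and Ctsk (6.85% of all genes tested). All 5 Csn8AKO libraries lay above all 5 Ctrl libraries for 17 of the 47 genes, and below them for 0, against 10.1% and 10.9% of all genes tested. The median log2 fold change over the 47 genes was 0.29, and 40 of them lay above 0 (50.5% of all genes tested). Without both libraries high in skeletal muscle markers, 24 of the 47 genes were higher and 0 lower, beside 2560 higher and 2743 lower of 23109 genes tested. With all 4 groups in one fit, Smpd1, Lamp2, Atp6v0a1, Gaa, Atp6v0d1, Tfeb, Ctsb and Hexa were not called. All 8 genes called in sWAT were also called higher in BAT, where they were 8 of 25. The overlap of calls between the tissues was not counted over all genes, so that of these 8 has no background to stand beside. The comparisons in sWAT and BAT used different mice.

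**Figure D1:**
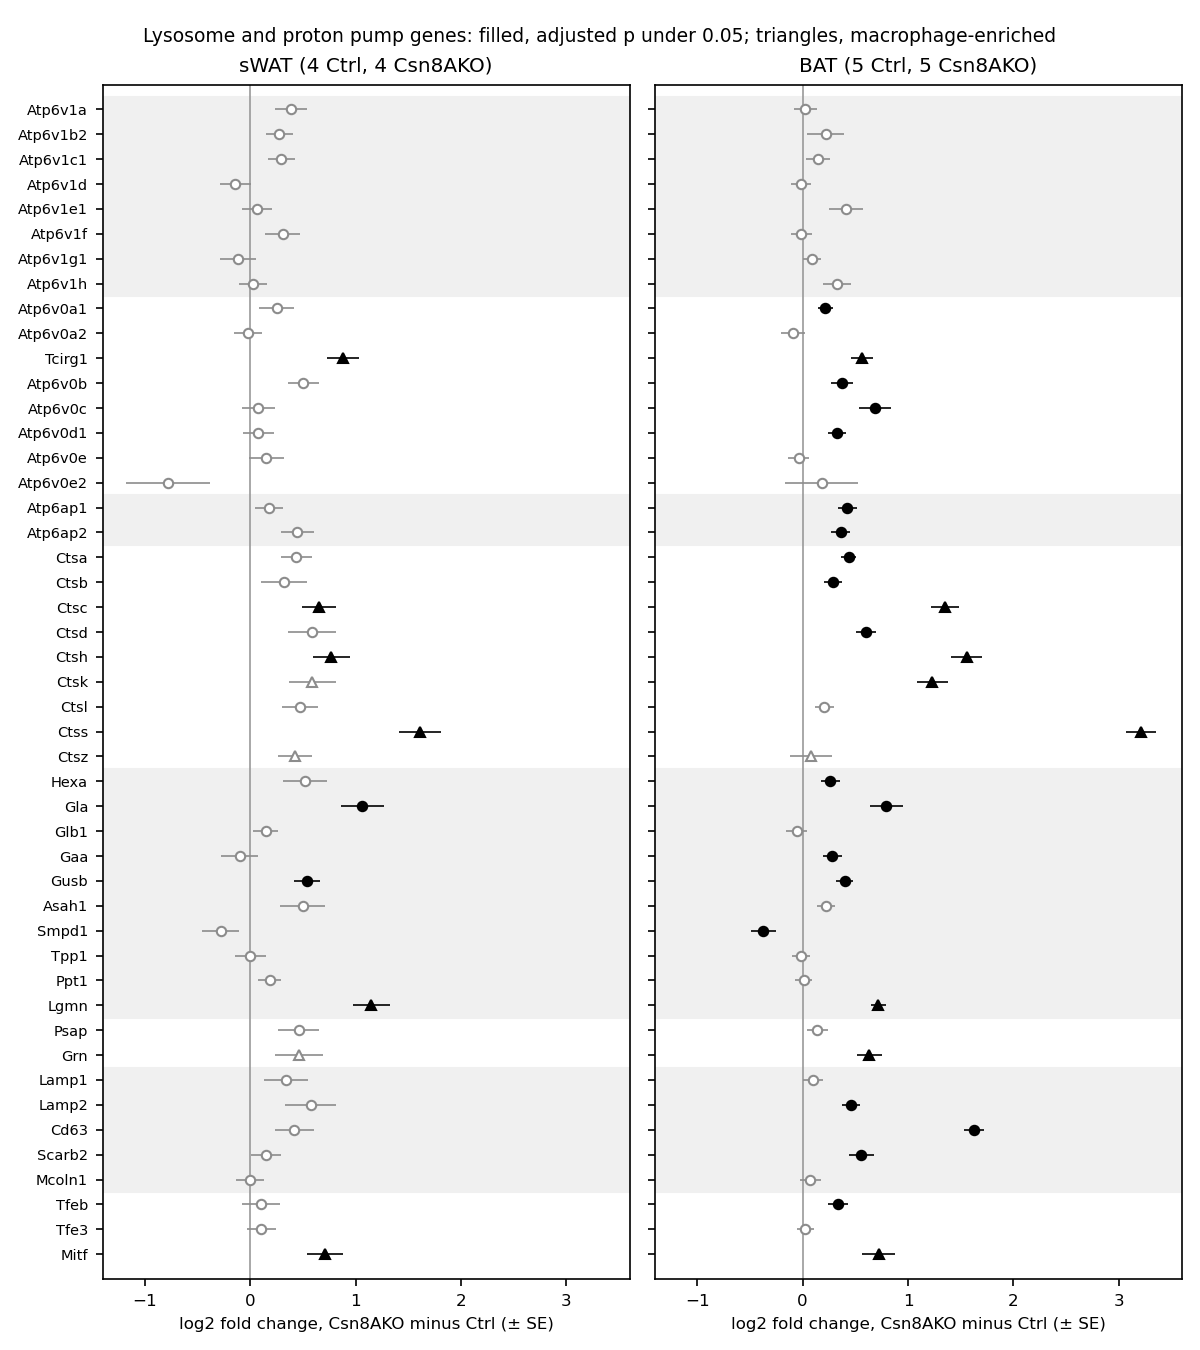
Log2 fold change (Csn8AKO minus Ctrl, ± SE) of each of the 47 genes in sWAT and in BAT, in the order V1, V0 and accessory subunits, cathepsins, other hydrolases, saposins and granulins, membrane proteins and MiT/TFE factors, with shading that alternates between these groups. Filled symbols mark an adjusted p under 0.05 and triangles the 9 macrophage-enriched genes; the 8 V1 genes are open in both tissues, and Ctss lies farthest to the right in both.

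No gene of the V1 sector, which holds the catalytic subunits, was called in either tissue, beside 5.31% of all genes tested in sWAT and 31.9% in BAT. In sWAT its 8 genes had log2 fold changes of -0.14 (Atp6v1d) to 0.39 (Atp6v1a), and in BAT of -0.014 (Atp6v1d) to 0.41 (Atp6v1e1). edgeR called 0 of the 8 in each tissue, 2 of the 8 had an unadjusted p under 0.05 in each, DESeq2 also called 0 in each, and limma voom called Atp6v1a in sWAT and Atp6v1e1 in BAT. Atp6v1e1 and Atp6v1h were also called in BAT with library size alone and without both libraries high in skeletal muscle markers. Atp6v1a, the catalytic A subunit, was at 65.8, 88.0, 76.3 and 75.6 CPM in Ctrl sWAT and 113, 77.3, 107 and 103 CPM in Csn8AKO sWAT. The BAT libraries held 114, 105, 130.0, 108 and 115 CPM of it in Ctrl and 104, 151, 108, 113 and 107 CPM in Csn8AKO mice. The groups overlapped in both tissues. Its log2 fold change had an SE of 0.15 in sWAT and 0.11 in BAT.

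Of the 8 V0 genes, 5 were higher in BAT (Atp6v0a1, Tcirg1, Atp6v0b, Atp6v0c and Atp6v0d1), and so were both accessory subunits, Atp6ap1 and Atp6ap2, the second of which is also known as the prorenin receptor. Over all genes tested, 16% were higher in BAT and 2.3% in sWAT. Atp6v0c encodes the proteolipid of the proton-carrying ring, and it had the largest change of the V0 members in BAT (log2 fold change 0.69, SE 0.15, adjusted p = 0.00380). Its levels were 40.4, 37.4, 44.5, 39.1 and 65.8 CPM in Ctrl and 68.7, 59.7, 73.3, 77.5 and 86.8 CPM in Csn8AKO libraries, so that Ctrl replicate 5 reached into the Csn8AKO range. The other called genes had log2 fold changes of 0.22 for Atp6v0a1 (adjusted p = 0.0302), 0.33 for Atp6v0d1 (adjusted p = 0.00897), 0.36 for Atp6ap2 (adjusted p = 0.00768), 0.37 for Atp6v0b (adjusted p = 0.0123) and 0.43 for Atp6ap1 (adjusted p = 0.00298). With single libraries omitted, Atp6v0a1 was called in 4 of 10 cases, with an adjusted p of up to 0.0761 without Csn8AKO replicate 4. Of all 18 subunits, Tcirg1 was called in sWAT, and Atp6v0b came next by adjusted p (log2 fold change 0.50, SE 0.15, adjusted p = 0.0823), with all 4 Csn8AKO libraries above all 4 Ctrl libraries.

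The a subunit of V0 has isoforms that place the pump in different membranes, and Tcirg1 encodes the a3 isoform, known from osteoclasts and macrophages. Tcirg1 (ENSMUSG00000001750, chromosome 19, 3896050 to 3907133, build GRCm38 as for all genes) was at 52.5, 38.8, 42.1 and 41.1 CPM in Ctrl sWAT and 63.2, 87.8, 90.2 and 80.6 CPM in Csn8AKO sWAT. The groups did not overlap (log2 fold change 0.88, SE 0.15, adjusted p = 0.0112). Ctrl BAT had 31.3, 34.8, 29.4, 33.6 and 29.9 CPM and Csn8AKO BAT 48.8, 35.6, 45.0, 50.5 and 54.8 CPM, again without overlap (log2 fold change 0.56, SE 0.10, adjusted p = 9.63e-04). Atp6v0a1, the a1 isoform, was at 105, 164, 116 and 116 CPM in Ctrl and 139, 132, 167 and 158 CPM in Csn8AKO sWAT, with overlap. Its BAT levels were 83.4, 82.2, 79.0, 76.5 and 86.0 CPM in Ctrl and 96.4, 84.6, 95.4, 100.4 and 96.2 CPM in Csn8AKO libraries, where 4 of the 5 Csn8AKO libraries exceeded every Ctrl library.

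Atp6v0a2, the a2 isoform known from the Golgi, was at 60.4, 57.8, 48.1 and 52.6 CPM in Ctrl and 49.7, 63.3, 52.6 and 49.9 CPM in Csn8AKO sWAT. The BAT values were 105, 106, 145, 118 and 142 CPM in Ctrl and 92.3, 133, 123, 116 and 115 CPM in Csn8AKO libraries. The groups overlapped in both tissues (log2 fold changes -0.022 in sWAT and -0.091 in BAT, adjusted p = 0.946 and 0.596). Per base of gene length, Tcirg1 made up 53.7% ± 3.08 (SD, n = 4) of the sum of Tcirg1 and Atp6v0a2 in Ctrl sWAT and 68.4% ± 2.98 (SD, n = 4) in Csn8AKO sWAT, with ranges of 49.5% to 56.1% and 65.0% to 71.5% that did not overlap. In BAT the same share was 22.9% to 32.5% in Ctrl and 28.2% to 43.6% in Csn8AKO libraries. The log2 ratio of the pair differed by 0.90 in sWAT (two-sided exact permutation test, p = 0.0286, adjusted over 8 tests p = 0.0508) and by 0.64 in BAT (exact test, p = 0.0317, adjusted over 8 tests p = 0.0508). Against Atp6v0a1, the ratio differed by 0.61 in sWAT (exact test, p = 0.0571, adjusted over 8 tests p = 0.0653) and by 0.33 in BAT (exact test, p = 0.0238, adjusted over 8 tests p = 0.0508). None of the 8 ratio tests passed an adjusted p of 0.05, and the smallest p that 4 against 4 libraries allow is 0.0286, for 5 against 5 it is 0.00794.

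The d subunit joins the sectors and has 2 isoforms. Atp6v0d2 (ENSMUSG00000028238, chromosome 4, 19876841 to 19922605), a d2 isoform known from osteoclasts and macrophages and not among the 47 genes, was at 0.905, 1.92, 1.54 and 1.25 CPM in Ctrl sWAT and 25.3, 21.7, 32.7 and 16.5 CPM in Csn8AKO sWAT. In BAT it was at 0.103, 0.169, 0.0968, 0.129 and 0.144 CPM in Ctrl libraries, from 4 to 10 reads each, and 8.03, 7.10, 7.35, 8.30 and 10.7 CPM in Csn8AKO libraries. It rose in both tissues, with log2 fold changes of 4.10 (adjusted p = 2.03e-04) in sWAT and 5.97 (adjusted p = 1.41e-09) in BAT. Atp6v0d1, the d1 isoform found in most cells, was at 68.0, 90.7, 76.0 and 81.1 CPM in Ctrl and 88.0, 64.7, 89.6 and 90.8 CPM in Csn8AKO sWAT, and these groups overlapped. Levels in BAT were 51.2, 52.2, 61.1, 52.9 and 60.9 CPM in Ctrl and 66.2, 78.2, 66.2, 63.5 and 75.7 CPM in Csn8AKO libraries, without overlap. The d2 isoform thus made up 0.893% to 1.40% of the pair per base of length in Ctrl sWAT and 10.7% to 19.5% in Csn8AKO sWAT. In BAT its share was 0.113% to 0.224% in Ctrl and 5.66% to 8.54% in Csn8AKO libraries. The log2 ratio differed by 4.01 in sWAT (exact permutation test, p = 0.0286, adjusted over 8 tests p = 0.0508) and by 5.59 in BAT (exact permutation test, p = 0.00794, adjusted over 8 tests p = 0.0508), and both p are the smallest that these designs allow.

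Atp6v0e2, 1 of the 2 genes of the small e subunit, was at 11.3, 19.7, 18.7 and 15.3 CPM in Ctrl and 10.4, 2.94, 13.6 and 10.9 CPM in Csn8AKO sWAT, with the lowest value in Csn8AKO replicate 2 (log2 fold change -0.78, SE 0.40, adjusted p = 0.315). In BAT libraries it was at 1.19, 0.982, 0.71, 1.20 and 3.26 CPM in Ctrl and 1.57, 1.85, 1.79, 1.44 and 1.74 CPM in Csn8AKO libraries. Atp6v0e was at 42.2, 52.9, 43.1 and 42.9 CPM in Ctrl and 65.9, 40.1, 47.1 and 48.2 CPM in Csn8AKO sWAT, and at 65.4, 59.4, 77.9, 64.2 and 72.8 CPM in Ctrl and 60.9, 80.6, 61.5, 66.3 and 61.8 CPM in Csn8AKO BAT. For both genes the groups overlapped in both tissues. Their log2 ratio differed by -1.08 in sWAT (exact permutation test, p = 0.0571, adjusted over 8 tests p = 0.0653) and by 0.44 in BAT (exact permutation test, p = 0.302, adjusted over 8 tests p = 0.302).

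**Figure D2:**
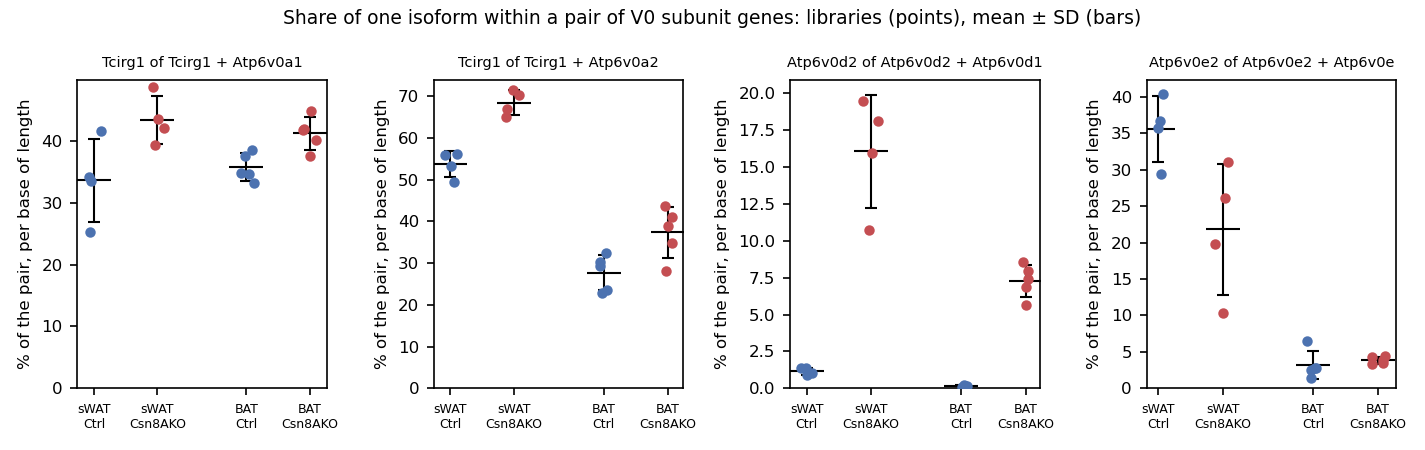
Share of the first-named isoform within each pair of V0 subunit genes, in percent of the pair per base of gene length, for each library (points) with the mean ± SD (bars) by tissue and genotype. The Atp6v0d2 share lies at 0.893% to 1.40% in Ctrl and 10.7% to 19.5% in Csn8AKO sWAT and at 0.113% to 0.224% in Ctrl and 5.66% to 8.54% in Csn8AKO BAT, whereas the Atp6v0e2 groups overlap in both tissues.

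Cathepsins are proteases of the lysosome, of which 7 of 9 were higher in BAT and 3 of 9 in sWAT. Among all genes tested, 16% were higher in BAT and 2.3% in sWAT. Over the 9, the median log2 fold change was 0.60 in BAT and 0.59 in sWAT. Ctss (ENSMUSG00000038642, chromosome 3, 95526786 to 95556403) encodes cathepsin S, which trims the invariant chain in antigen-presenting cells. In sWAT it was at 72.3, 41.7, 54.5 and 52.4 CPM in Ctrl and 199, 177, 173 and 125 CPM in Csn8AKO libraries (log2 fold change 1.61, SE 0.20, adjusted p = 0.00285). The BAT libraries had 5.61, 4.54, 4.07, 5.66 and 4.90 CPM in Ctrl and 43.9, 35.4, 52.0, 42.4 and 55.5 CPM in Csn8AKO libraries, a 9.26-fold rise (log2 fold change 3.21, SE 0.14, adjusted p = 6.90e-09). The lowest Csn8AKO library was above the highest Ctrl library in both tissues.

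Ctsh, an aminopeptidase, was at 72.7, 54.8, 69.0 and 75.5 CPM in Ctrl and 149.7, 90.3, 117 and 106 CPM in Csn8AKO sWAT (log2 fold change 0.77, SE 0.17, adjusted p = 0.0345). Levels in BAT were 8.17, 8.89, 5.42, 6.22 and 6.31 CPM in Ctrl and 20.3, 16.8, 21.8, 19.3 and 24.7 CPM in Csn8AKO libraries (log2 fold change 1.56, SE 0.15, adjusted p = 4.96e-06). Both sets of groups were apart. Ctsc, which activates the serine proteases of granules, was at 12.5, 9.57, 8.99, 9.72 and 8.60 CPM in Ctrl and 27.8, 18.9, 25.4, 25.3 and 28.5 CPM in Csn8AKO BAT (log2 fold change 1.35, SE 0.13, adjusted p = 5.25e-06). Ctsk, the collagen-degrading cathepsin known from osteoclasts, was at 3.72, 2.98, 2.86, 3.32 and 3.26 CPM in Ctrl and 7.08, 5.95, 8.28, 6.89 and 9.66 CPM in Csn8AKO BAT (log2 fold change 1.23, SE 0.15, adjusted p = 3.63e-05). Neither pair of groups overlapped. In sWAT the log2 fold changes were 0.65 (adjusted p = 0.0473) for Ctsc and 0.59 (adjusted p = 0.169) for Ctsk. With single libraries omitted, the sWAT calls of Ctsc and Ctsh each held in 2 of 8 cases, with adjusted p of up to 0.146 without Ctrl replicate 4 for Ctsc and 0.111 without Ctrl replicate 2 for Ctsh.

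Of the broadly expressed cathepsins, Ctsd, an aspartic protease, averaged 512 ± 47.6 CPM (SD, n = 5) in Ctrl and 778 ± 46.7 CPM (SD, n = 5) in Csn8AKO BAT (log2 fold change 0.60, SE 0.094, adjusted p = 2.61e-04). Ctsa, which protects other lysosomal enzymes, rose by 0.44 (adjusted p = 2.66e-04) and Ctsb by 0.29 (adjusted p = 0.0238) on the log2 scale in BAT. The call of Ctsb held in 6 of 10 cases with 1 library omitted, and its adjusted p reached 0.0594 without Ctrl replicate 2. Ctsl had log2 fold changes of 0.47 (adjusted p = 0.144) in sWAT and 0.21 (adjusted p = 0.0907) in BAT, and Ctsz 0.42 (adjusted p = 0.169) and 0.08 (adjusted p = 0.798). Ctsz was the 1 macrophage-enriched gene called in neither tissue, and its BAT libraries ranged from 131 to 250.2 CPM in Ctrl mice alone.

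**Figure D3:**
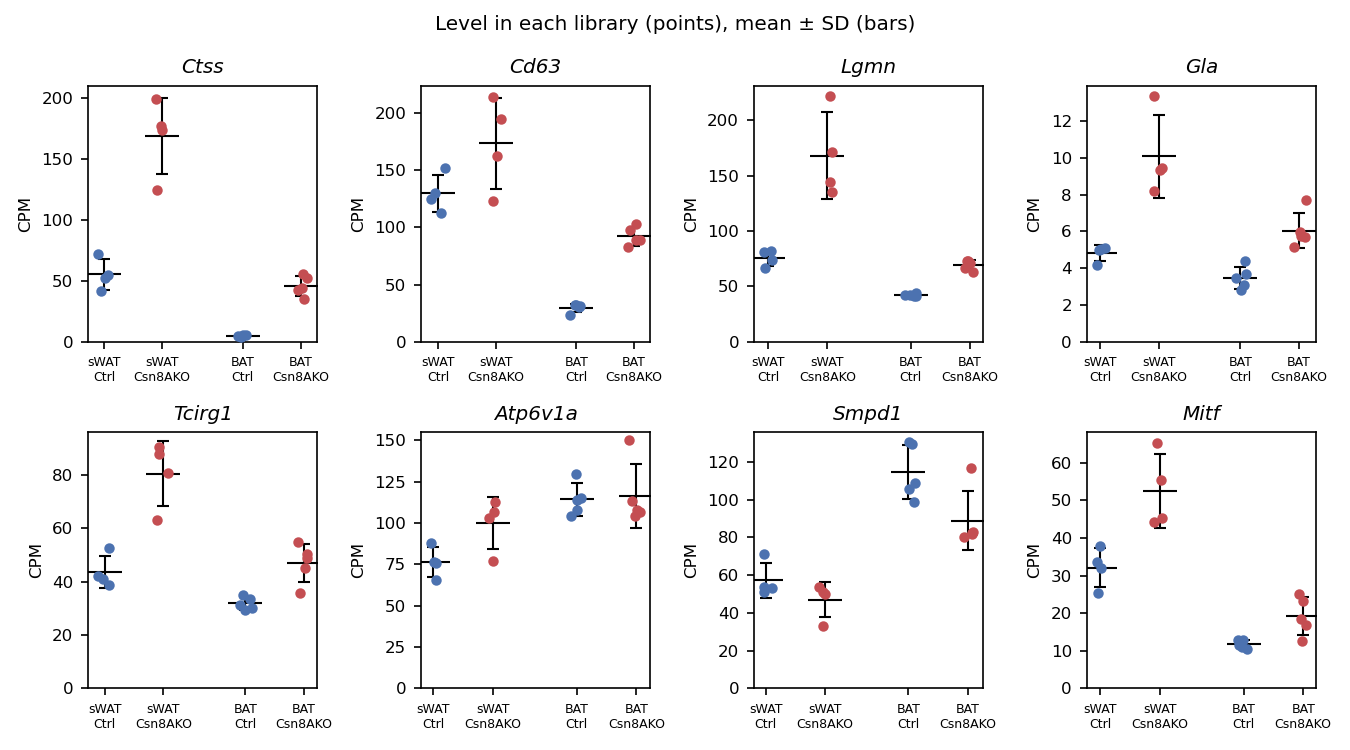
CPM of 8 of the genes in each library (points) with the mean ± SD (bars), by tissue and genotype, on axes that start at 0. Ctss, Lgmn, Gla and Tcirg1 have all Csn8AKO libraries above all Ctrl libraries in both tissues, Cd63 in BAT and Mitf in sWAT, while the Atp6v1a and Smpd1 groups overlap.

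Of the 10 other hydrolases, 3 were higher in sWAT, and 5 were higher and 1 was lower in BAT. The shares over all genes tested were 2.3% higher in sWAT, and 16% higher and 15.8% lower in BAT. Lgmn (ENSMUSG00000021190, chromosome 12, 102394084 to 102439813), the asparaginyl endopeptidase legumain, was at 66.3, 73.8, 81.6 and 81.3 CPM in Ctrl and 171, 144, 222 and 135 CPM in Csn8AKO sWAT (log2 fold change 1.15, SE 0.17, adjusted p = 0.00648). The Ctrl libraries of BAT had 42.2, 40.9, 41.2, 42.7 and 44.1 CPM and the Csn8AKO libraries 73.3, 71.3, 66.9, 63.2 and 72.9 CPM (log2 fold change 0.72, SE 0.068, adjusted p = 4.96e-06). Gla (ENSMUSG00000031266, chromosome X, 134588149 to 134601125), whose E-boxes are shown above, was the lowest of the 47 genes per base of length in Ctrl sWAT, at 1.48 ± 0.138 CPM per kilobase (SD, n = 4). It was at 5.11, 4.15, 5.03 and 4.98 CPM in Ctrl and 9.35, 8.19, 13.4 and 9.42 CPM in Csn8AKO sWAT (log2 fold change 1.06, SE 0.20, adjusted p = 0.0173). In BAT, Gla was at 3.10, 2.79, 3.66, 3.45 and 4.40 CPM in Ctrl and 5.15, 5.68, 5.77, 5.96 and 7.69 CPM in Csn8AKO libraries (log2 fold change 0.79, SE 0.16, adjusted p = 0.00155). No library of either group reached into the other in either tissue. Its sWAT call held in 4 of 8 cases with 1 library omitted, with an adjusted p of up to 0.0629 without Ctrl replicate 2.

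Gusb, beta-glucuronidase, rose by 0.53 (adjusted p = 0.0355) in sWAT and 0.40 (adjusted p = 0.00240) in BAT on the log2 scale, although its sWAT call held in 1 of 8 cases with a library omitted, with an adjusted p of up to 0.129 without Ctrl replicate 3. Hexa (log2 fold change 0.26, adjusted p = 0.0374), a hexosaminidase subunit, and Gaa (log2 fold change 0.28, adjusted p = 0.0277), the glucosidase that degrades lysosomal glycogen, were also higher in BAT. They were called in 4 and 5 of 10 cases with 1 library omitted, with adjusted p of up to 0.101 (without Ctrl replicate 2) and 0.0797 (without Ctrl replicate 2). Smpd1, acid sphingomyelinase, was the 1 gene that fell. It was at 106, 98.8, 131, 129 and 109 CPM in Ctrl BAT and 82.8, 117, 81.6, 82.2 and 80.4 CPM in Csn8AKO BAT, where replicate 2 lay inside the Ctrl range and the other 4 libraries below it (log2 fold change -0.37, SE 0.12, adjusted p = 0.0264). Its call held in 4 of 10 cases with 1 library omitted, with an adjusted p of up to 0.0708 without Csn8AKO replicate 4. The remaining hydrolases, Glb1, Asah1, Tpp1 and Ppt1, were called in neither tissue, although Asah1 was called in BAT by DESeq2 and limma voom.

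Of the 7 membrane proteins and precursors of saposins and granulins, 4 were higher in BAT and 0 were called by edgeR in sWAT, where 3 had an unadjusted p under 0.05, DESeq2 called Psap and limma voom Psap and Grn. Among all genes tested with edgeR, 16% were higher in BAT and 5.31% were called in sWAT. Cd63 (ENSMUSG00000025351, chromosome 10, 128900989 to 128912822), a tetraspanin of late endosomes and secreted vesicles, was at 32.1, 31.1, 23.7, 30.6 and 32.0 CPM in Ctrl and 82.4, 88.8, 89.1, 97.3 and 103 CPM in Csn8AKO BAT, with a wide gap between the groups (log2 fold change 1.62, SE 0.096, adjusted p = 1.12e-07). In sWAT its groups overlapped (log2 fold change 0.42, SE 0.18, adjusted p = 0.235). Scarb2, the receptor that carries glucocerebrosidase to lysosomes (log2 fold change 0.56, adjusted p = 0.00258), and Lamp2, a protein of the limiting membrane (log2 fold change 0.46, adjusted p = 9.55e-04), also rose in BAT. Lamp1 had log2 fold changes of 0.34 (adjusted p = 0.412) in sWAT and 0.10 (adjusted p = 0.472) in BAT, and Mcoln1, a calcium channel, -0.0052 (adjusted p = 0.988) and 0.075 (adjusted p = 0.605). Grn, the precursor of granulins, averaged 142 ± 20.9 CPM (SD, n = 5) in Ctrl and 221 ± 34.2 CPM (SD, n = 5) in Csn8AKO BAT (log2 fold change 0.63, SE 0.12, adjusted p = 0.00130). Psap, the precursor of saposins, was the most abundant of the 47 genes per base of length, at 448 ± 30.2 CPM per kilobase in Ctrl sWAT (SD, n = 4), and had log2 fold changes of 0.46 (adjusted p = 0.214) in sWAT and 0.14 (adjusted p = 0.325) in BAT.

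Of the 3 MiT/TFE factors, Mitf was called in both tissues, Tfeb in BAT and Tfe3 in neither. Mitf was at 37.8, 25.3, 33.5 and 31.9 CPM in Ctrl and 65.3, 45.2, 55.4 and 44.2 CPM in Csn8AKO sWAT, without overlap (log2 fold change 0.71, SE 0.17, adjusted p = 0.0390). In BAT, Mitf was at 12.7, 11.0, 10.3, 12.7 and 11.5 CPM in Ctrl and 23.2, 12.5, 16.8, 18.5 and 25.0 CPM in Csn8AKO libraries, where replicate 2 lay within the Ctrl range (log2 fold change 0.72, SE 0.16, adjusted p = 0.00312). The sWAT call of Mitf held in 3 of 8 cases with 1 library omitted, with an adjusted p of up to 0.125 without Csn8AKO replicate 3. Tfeb was at 34.7, 30.2, 24.2 and 24.4 CPM in Ctrl and 26.2, 35.7, 35.3 and 24.2 CPM in Csn8AKO sWAT, and at 32.3, 30.4, 41.0, 41.3 and 35.8 CPM in Ctrl and 39.6, 48.0, 47.5, 47.9 and 45.9 CPM in Csn8AKO BAT. It was higher in BAT, where 4 of the 5 Csn8AKO libraries exceeded every Ctrl library (log2 fold change 0.34, SE 0.097, adjusted p = 0.0162), and overlapped in sWAT (log2 fold change 0.098, SE 0.18, adjusted p = 0.818). Tfe3 was at 49.7, 54.3, 45.4 and 44.4 CPM in Ctrl and 47.2, 44.7, 58.5 and 58.3 CPM in Csn8AKO sWAT, and at 45.5, 48.0, 52.2, 49.6 and 56.5 CPM in Ctrl and 52.2, 44.5, 54.5, 51.4 and 53.9 CPM in Csn8AKO BAT. Its groups overlapped in both tissues (log2 fold changes 0.10 in sWAT and 0.027 in BAT, adjusted p = 0.724 and 0.835). The activity of these factors is set largely by their phosphorylation and location, which RNA levels do not show.

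A genotype-by-tissue term fitted over the 18 libraries tested whether the change differed between BAT and sWAT. Of the 22509 genes tested 2.36% were called, and 1.61% with the larger log2 fold change in BAT. Of the 47 genes 2 were called, Ctss and Cd63. The change of Ctss was larger in BAT by 1.58 (SE 0.23, adjusted p = 7.03e-04) on the log2 scale, and that of Cd63 by 1.19 (SE 0.21, adjusted p = 0.00424). Both kept this call without the libraries high in B and T cell markers and without those high in skeletal muscle markers. Another 5 genes had an unadjusted p under 0.05, and of these Atp6v0c, Ctsc, Ctsh and Ctsk had the larger change in BAT and Lgmn in sWAT. For the other 45 genes the term did not pass the test, so that a call in BAT and none in sWAT is not a shown difference.

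**Figure D4:**
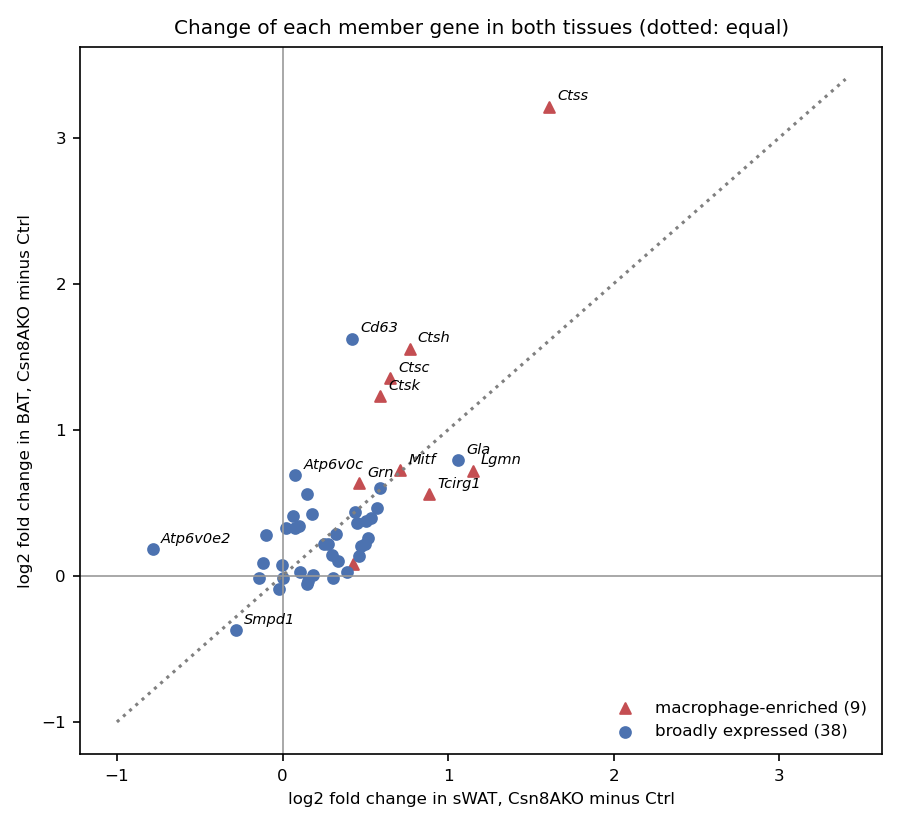
Log2 fold change (Csn8AKO minus Ctrl) of each of the 47 genes in sWAT (horizontal) and BAT (vertical), with triangles for the 9 macrophage-enriched and circles for the 38 broadly expressed genes and a dotted line of equal change. Ctss and Cd63, the 2 genes with a called interaction, lie above the line at 1.61 and 3.21 and at 0.42 and 1.62.

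Of 93 further lysosomal genes outside the 47, 9 of the 86 tested in sWAT were higher and 0 lower, while in BAT 22 of 89 were higher and 22 lower. These are 10.5% higher in sWAT, beside 2.3% higher and 3% lower over all genes tested, and 24.7% in each direction in BAT, beside 16% higher and 15.8% lower. The median log2 fold change of these genes was 0.036 in sWAT, where 19 had an unadjusted p under 0.05 in edgeR, and 0.0094 in BAT. In sWAT the higher ones included Lipa, the acid lipase that hydrolyses cholesteryl esters and triglycerides (log2 fold change 1.22, adjusted p = 0.00938), Galns, a sulfatase (log2 fold change 0.67, adjusted p = 0.0184), and the membrane proteins Slc11a1 (log2 fold change 1.19, adjusted p = 0.00593), Cd68 (log2 fold change 1.33, adjusted p = 0.0127) and Slc15a3 (log2 fold change 1.53, adjusted p = 0.0353). Cstb, an inhibitor of cysteine cathepsins, rose by 0.81 (adjusted p = 0.0351) and Ncoa7, a protein that binds the V-ATPase, by 0.82 (adjusted p = 0.0222) on the log2 scale. Of the 28 further hydrolases and activators in BAT, 7 were higher, with Gm2a (log2 fold change 0.83, adjusted p = 6.66e-05), Npc2 (log2 fold change 0.96, adjusted p = 1.71e-04) and Man2b1 (log2 fold change 0.52, adjusted p = 3.45e-04) of smallest adjusted p, and 9 were lower. In BAT the log2 fold change of Lipa was -0.20 (adjusted p = 0.519), and its change differed between the tissues by -1.44 (SE 0.32, adjusted p = 0.0184).

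Among 19 further membrane proteins in BAT, 5 were higher, led by Cd68 (log2 fold change 2.52, adjusted p = 1.12e-08), Laptm5 (log2 fold change 2.12, adjusted p = 1.21e-07) and Slc11a1 (log2 fold change 1.77, adjusted p = 2.96e-06), which are known from macrophages and other leukocytes. Among 15 genes that control MiT/TFE factors at the lysosome, 5 were higher and 4 lower in BAT. Of all genes tested in BAT, 16% were higher and 15.8% lower. In sWAT 0 of the 14 tested were called, and 2 had an unadjusted p under 0.05 (edgeR). The Rag GTPase genes Rragc (log2 fold change 0.78, adjusted p = 1.77e-04) and Rragb (log2 fold change -2.75, adjusted p = 3.66e-04) moved in opposite directions in BAT. Rragb did not pass the filter on low counts in sWAT and was not tested there. Tfec, another member of the MiT/TFE family, averaged 0.132 ± 0.0763 CPM (SD, n = 5) in Ctrl and 0.840 ± 0.115 CPM (SD, n = 5) in Csn8AKO BAT (log2 fold change 2.72, SE 0.34, adjusted p = 4.94e-05). Among V-ATPase regulators, Rogdi (log2 fold change -0.91, adjusted p = 1.62e-04) and Oxr1 (log2 fold change -0.58, adjusted p = 3.03e-04) fell and Ncoa7 rose (log2 fold change 0.40, adjusted p = 0.00463) in BAT. The tissue-restricted subunit Atp6v1c2 was higher in sWAT (log2 fold change 1.59, adjusted p = 0.0445) and lower in BAT (log2 fold change -1.05, adjusted p = 0.0153), and these changes differed by -2.67 (SE 0.50, adjusted p = 0.00613), at levels of at most 2.48 CPM in any library. Atp6v1g2 fell in BAT (log2 fold change -0.73, adjusted p = 0.0138). Cst7, a cystatin of leukocytes, rose (log2 fold change 1.17, adjusted p = 0.00126) and Cst3 fell (log2 fold change -0.39, adjusted p = 0.0110), and of the sorting genes Gga2 (log2 fold change 0.52, adjusted p = 8.65e-04) and Gga3 (log2 fold change 0.39, adjusted p = 0.00912) rose and Gnptg fell (log2 fold change -0.32, adjusted p = 0.0345).

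Some markers of cell types were also called between the genotypes, and others were not called, which does not show that their levels were equal. Of all genes tested, 2.3% were higher and 3% lower in sWAT, and 16% and 15.8% in BAT. Of 21 macrophage markers, 13 were higher in Csn8AKO sWAT and 18 in Csn8AKO BAT, and their median log2 fold changes were 0.98 and 1.51. Their sums did not overlap between genotypes in either tissue, and none of the 21 was at 0 in a group. The resident macrophage marker Cd163 was not called (log2 fold changes 0.15 in sWAT and 0.22 in BAT, adjusted p = 0.816 and 0.237). The part of macrophages in the values of Ctss, Tcirg1, Atp6v0d2 and the other genes was not tested.

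The counts that follow stand beside 2.3% higher and 3% lower of all genes tested in sWAT, and 16% and 15.8% in BAT. Of the 12 adipocyte markers, 4 were lower and 0 higher in Csn8AKO sWAT, and their summed level was 4917 to 10878 CPM against 12055 to 17230.0 CPM in Ctrl sWAT. In BAT 2 were higher and 3 lower, and the sums overlapped, at 11963 to 14006 CPM in Ctrl and 11684 to 14645 CPM in Csn8AKO libraries. Of the 8 brown adipocyte markers 1 was higher and 1 lower in BAT, with overlapping sums, and of the 7 tested in sWAT 3 were lower, with sums of 104 to 194 CPM in Ctrl and 22.3 to 47.1 CPM in Csn8AKO libraries. All 10 fibroblast and progenitor markers were higher in Csn8AKO BAT, at 3453 to 6039 CPM in sum against 1373 to 2301 CPM, and 1 was in sWAT. Of the mast cell markers, 4 of 6 tested were higher in BAT and 0 of 8 in sWAT, where 5 had an unadjusted p under 0.05 (edgeR) and the median log2 fold change was 1.12. Their sums overlapped in BAT, at 33.5 to 67.0 CPM in Ctrl and 38.4 to 81.4 CPM in Csn8AKO libraries. In sWAT the sums were 64.2 to 102.0 CPM in Ctrl and 102.7 to 244 CPM in Csn8AKO libraries. Osteoclasts, which share Tcirg1, Ctsk and Atp6v0d2 with macrophages, had 1 of the 2 markers tested higher in sWAT, Dcstamp at 0.364 ± 0.187 CPM in Ctrl and 1.60 ± 0.476 CPM in Csn8AKO libraries (SD, n = 4 per group), and 0 of the 3 tested in BAT, where no marker tested had an unadjusted p under 0.05 and Dcstamp was at 0 in all Ctrl libraries. Of the neutrophil markers 1 was higher in each tissue, of 3 tested in sWAT and 2 in BAT, and Ly6g was at 0 in every sWAT library. Of 8 T cell and 8 B cell markers, 0 were called in sWAT and 0 had an unadjusted p under 0.05 (edgeR), and in BAT 2 T cell markers were higher and 1 B cell marker each higher and lower. In sWAT the median log2 fold change was 0.31 over the T cell and 1.29 over the B cell markers, with 1 library of each genotype far above the others. Of 8 endothelial markers, 0 were called in sWAT (1 at an unadjusted p under 0.05, edgeR) and 3 were higher in BAT. Of the skeletal muscle markers, 0 of 8 were called in sWAT (1 at an unadjusted p under 0.05, edgeR) and 2 of the 4 tested were higher in BAT. Their BAT sums were 123 and 209 CPM in Csn8AKO replicates 1 and 5 and 3.09 to 8.16 CPM in the other Csn8AKO libraries. In Ctrl BAT they were 3.23 to 14.0 CPM. The part of these cells in the values of the 47 genes was not tested.

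**Figure D5:**
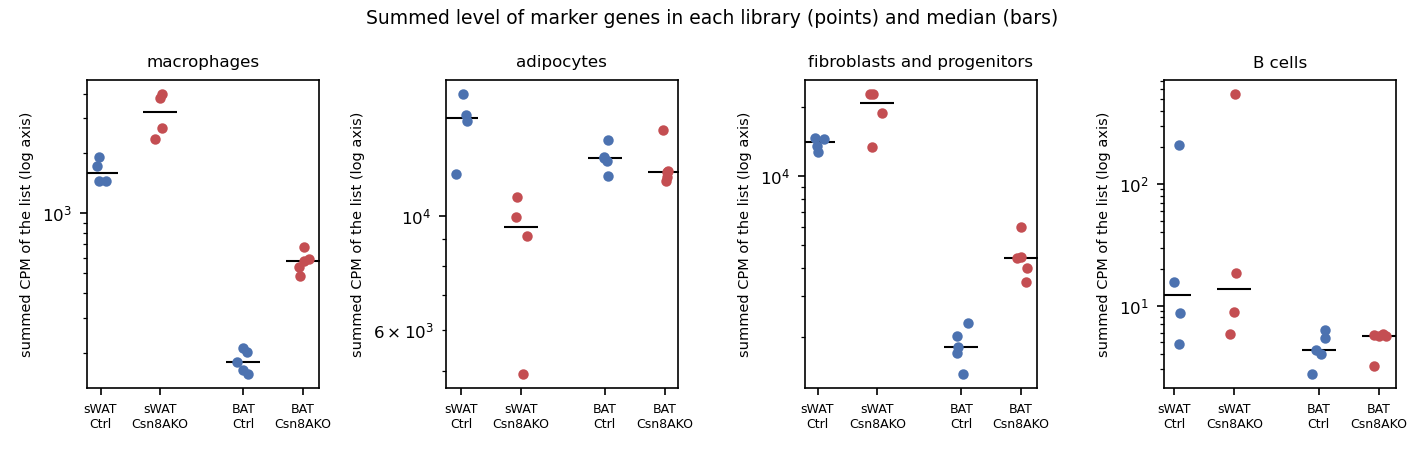
Summed CPM of the macrophage, adipocyte, fibroblast and B cell marker lists in each library (points) with the group median (bars), on log axes, by tissue and genotype. The macrophage sums of Ctrl and Csn8AKO libraries are apart in both tissues, and the B cell sums of Ctrl replicate 1 and Csn8AKO replicate 2 stand far above the other sWAT libraries.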

How the data were processed

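Reads of 18 libraries were aligned by the authors with STAR 2.7.9a (per the submitters' processing notes) to the mouse genome GRCm38 and counted on Ensembl genes with featureCounts, using uniquely aligned and unambiguous reads. Whether strand was used in counting is not given in the sources used here, and 12 of the 47 genes have exons overlapped by a gene on the opposite strand and 3 by one on the same strand. The authors deposited the raw count of each gene, together with CPM, FPKM and TPM derived from the counts. The deposited CPM and FPKM were compared with the counts, and none of these 3 units was used further.

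Counts were compared between genotypes within each tissue with edgeR 4.0.16 in R 4.3.3 (TMM factors; genes kept by filterByExpr at 10 reads per library and 15 in all; robust quasi-likelihood test; Benjamini-Hochberg adjustment over all genes tested), and SE was taken from the F statistic. Ratios of gene pairs added 0.5 to each count and were tested by two-sided exact permutation. Each library was treated as a separate sample. The fit was tested on simulated data with 200 changed genes, and found 32.0% of those with a log2 change of 1 and 85.0% of those with 2 among 18674 genes in sWAT, and 89.0% and 99.0% among 22245 in BAT. The changed genes were drawn from those with an average log2 CPM above 1. Over the 47 genes the median log2 fold change was 0.32 in sWAT and 0.29 in BAT, and recovery of changes of that size was not simulated. DESeq2 1.42.0, limma 3.58.1, other scalings and filters, a replicate block and each library left out were alternatives, and fits without libraries high in B and T cell or muscle markers were added after the data were seen. The members, lists and tests were chosen with earlier results of these data known. Per-library values were given for the 6 called genes of largest change in each tissue, called genes against the majority direction, MiT/TFE factors and genes of the isoform pairs. Fold changes were given for the other genes named, which in each further list were up to 3 called genes by smallest adjusted p. The per-library values of Atp6v1a and Atp6v0c, the Ctrl range of Ctsz, the mean of Tfec, the fold change of Lipa in BAT and the values of the single markers named were added after they were seen. Tables were made with Python 3.11.15, pandas 2.3.3 and scipy 1.17.1.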

Additional observations from a re-analysis of the deposited data

Results flagged for a closer look

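In groups of 4 or 5 libraries, 1 library lay far from the others, by the size of its gap relative to the range of the group, in 18 of 188 groups tested (47 genes in 4 groups). For a single group of normally distributed values the cutoff gives about 1 in 20 by chance. The 188 groups reuse the same libraries and are not independent, so their count cannot be judged against that rate. sWAT Csn8AKO replicate 2 was the outlying library for Atp6v0d1 at 64.7 CPM against 88.0 to 90.8 CPM and Smpd1 at 33.2 CPM against 50.3 to 53.5 CPM. sWAT Ctrl replicate 2 was the outlying library for Atp6v0e at 52.9 CPM against 42.2 to 43.1 CPM, Ctsd at 516 CPM against 298 to 311 CPM, Gla at 4.15 CPM against 4.98 to 5.11 CPM and Smpd1 at 71.1 CPM against 51.0 to 53.5 CPM. BAT Csn8AKO replicate 2 was the outlying library for Atp6v1a at 151 CPM against 104 to 113 CPM, Atp6v1d at 76.8 CPM against 54.2 to 59.4 CPM, Atp6v1f at 55.3 CPM against 41.2 to 43.3 CPM, Atp6v0e at 80.6 CPM against 60.9 to 66.3 CPM and Smpd1 at 117 CPM against 80.4 to 82.8 CPM. BAT Ctrl replicate 5 was the outlying library for Atp6v0c at 65.8 CPM against 37.4 to 44.5 CPM and Atp6v0e2 at 3.26 CPM against 0.71 to 1.20 CPM. BAT Ctrl replicate 1 was the outlying library for Ctsc at 12.5 CPM against 8.60 to 9.72 CPM. BAT Csn8AKO replicate 1 was the outlying library for Ctsz at 141 CPM against 212 to 234 CPM and Tfeb at 39.6 CPM against 45.9 to 48.0 CPM. BAT Csn8AKO replicate 5 was the outlying library for Hexa at 72.8 CPM against 55.8 to 60.5 CPM. BAT Ctrl replicate 3 was the outlying library for Cd63 at 23.7 CPM against 30.6 to 32.1 CPM. The change of Ctss was larger in BAT than in sWAT by 1.58 (SE 0.23, adjusted p = 7.03e-04) on the log2 scale, and that of Cd63 by 1.19 (SE 0.21, adjusted p = 0.00424), both by the interaction test of edgeR's quasi-likelihood fit. Tissue and age cannot be told apart.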

How the results depend on the processing

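No gene called in the fit reported changed its direction under any alternative run. Atp6v0e2 in BAT, not called there, was called higher without Ctrl replicate 5 (log2 fold change 0.71, edgeR adjusted p = 0.0218) and had a log2 fold change below 0 without Ctrl replicate 3. In sWAT, where 8 genes were called (8 higher; 6 macrophage-enriched, 2 broadly expressed, 3 with a log2 fold change of at least 1), scaling by library size alone left 1 called (1 higher, 1 macrophage-enriched, 0 broadly expressed, 1 with a log2 fold change of at least 1). The broadly expressed genes called were 1 with no filter on low counts and 4 with DESeq2. With limma voom 19 were called (19 higher, 11 broadly expressed), and with all 4 groups in one fit 13 (13 higher, 7 broadly expressed). Without both libraries high in B and T cell markers there were 15 (14 higher, 1 lower, 7 broadly expressed). In fits that each left out 1 library, the number called ran from 3 to 19 (the same range for higher), with 3 to 9 macrophage-enriched, 0 to 10 broadly expressed and 1 to 3 with a log2 fold change of at least 1. Calls over all genes tested in sWAT moved as well, from 434 higher and 566 lower of 18843 in the fit reported. There were 106 and 328 with library size alone and 912 and 1034 with DESeq2. Limma voom gave 1077 and 1078, and all 4 groups in one fit 1044 and 1419 of 22509. In BAT, where 26 of the 47 were called, the 1 lower gene, Smpd1, was not called with library size alone, all 4 groups in one fit (0 lower, 10 broadly expressed higher) or without both libraries high in muscle markers (0 lower), and the number lower was 0 to 1 when 1 library was left out. Over all genes tested in BAT, 2583 were higher and 2677 lower with all 4 groups in one fit, against 3585 and 3536 in the fit reported. Of the 47 genes, those with a called interaction were 4 with DESeq2, 4 with limma voom and 2 to 4 when 1 library was left out. Interaction calls over all genes tested were 362 with the larger log2 fold change in BAT and 170 with the larger in sWAT in the fit reported. These numbers were 737 and 355 with DESeq2, and 572 and 331 with limma voom. The difference of the log2 ratio of Atp6v0d2 to Atp6v0d1 in BAT was 4.90 with 5 added to each count. Scaling by library size alone moved the median log2 fold change of all genes in BAT from 0.0063 to 0.14 and that of the interaction from -0.00411 to 0.21. The deviations of same-numbered samples correlated at -0.42 to 0.24 in sWAT and -0.13 to 0.14 in BAT, over all genes tested. Whether same-numbered samples shared a litter or a processing day is not known, and these correlations cannot exclude it. With a replicate block 2 genes were called in sWAT (2 higher, 2 macrophage-enriched, 0 broadly expressed), namely Ctss and Lgmn, 23 in BAT and 2 for the interaction. Over all genes tested, the block gave 134 higher and 165 lower in sWAT and 3353 and 3423 in BAT. The cause of these differences was not tested.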
